A study of Mus musculus with 21 samples.

Results

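The comparison described here set *H2al2* KO round spermatids against wild-type (WT) round spermatids, with 3 libraries of each genotype, 6 of the 21 libraries of the series, taken by the genotype and cell type in their labels. All 24456 listed genes were considered, 19514 of them had a read in at least 1 of the 6 libraries, and 12804 passed a filter on low counts and were tested. Total RNA from fractionated mouse testis cells was depleted of ribosomal RNA and sequenced with strand information, and the reads of each gene were counted. The labels give the tissue, the cell type and the genotype of each library. They do not give the strain, the age, the structure of the KO allele, or whether replicates came from separate animals or from pooled testes, so the p-values measure the spread between these libraries. The study calls its replicates of wild-type round spermatids biological, without naming the animals behind each library.

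H2A.L.2 is a testis-specific variant of histone H2A that appears late in spermatid development. It is known for opening nucleosomes to the transition proteins, basic proteins that take over from histones before protamines package the sperm genome. Round spermatids are the haploid cells that precede this exchange, and they still transcribe and store much of the mRNA that is translated later.

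The gene of H2A.L.2 was listed as *H2afb1*, an older symbol of the gene that RefSeq names *H2al2a*, at chr2:17996417-17996958 on the minus strand of GRCm38. The first 300 of its 336 coding bases are shown beside those of *Gm16501* (*H2al2b*), a Y-linked relative, because reads of near-identical copies could be counted for one another. Both are written 5′ to 3′ along the coding strand from the GENCODE transcripts, and capitals mark the bases that differ.
H2afb1: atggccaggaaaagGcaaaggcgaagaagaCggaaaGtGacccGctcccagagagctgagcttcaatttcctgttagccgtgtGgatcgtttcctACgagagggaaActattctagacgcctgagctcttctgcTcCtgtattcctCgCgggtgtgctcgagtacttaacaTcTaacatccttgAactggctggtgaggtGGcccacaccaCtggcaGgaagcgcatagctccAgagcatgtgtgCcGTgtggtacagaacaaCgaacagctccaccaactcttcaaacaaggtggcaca
Gm16501: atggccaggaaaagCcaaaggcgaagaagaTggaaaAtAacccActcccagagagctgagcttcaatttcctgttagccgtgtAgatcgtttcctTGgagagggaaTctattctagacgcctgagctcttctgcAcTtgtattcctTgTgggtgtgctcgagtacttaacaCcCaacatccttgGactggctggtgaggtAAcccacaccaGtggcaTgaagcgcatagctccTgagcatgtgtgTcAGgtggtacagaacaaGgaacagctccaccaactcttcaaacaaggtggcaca
The stretches shown differ at 25 bases and the whole coding sequences at 26, an identity of 92.3%. A second Y-linked relative, *Gm6026* (*H2al2c*), had the same coding sequence as *Gm16501*. Of the 468 stretches of 75 bases, the read length, in the *H2afb1* transcript, 0 occurred in a transcript of another gene, so a full-length read of *H2afb1* could be told from its relatives. *Gm16501*, *Gm6026* and the X-linked *H2afb2* had 0 reads in all 6 libraries. The X-linked *H2afb3* and *Gm14920*, both of the H2A.B group of short histones, lay at 0.527 to 1.79 CPM and at 0 to 0.793 CPM (read counts scaled to library totals with TMM factors), too low to be tested.

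Counts on genes ranged from 7230653 to 7387043 in the KO libraries and from 7326572 to 7852780 in the WT libraries, which puts 3 counts, the limit that a count of 0 allows, at 0.380 to 0.425 CPM (counting error only). The summed level of 15 round spermatid markers, among them *Pgk2*, *Spert* and *Dkkl1*, was 5160.4 to 5776 CPM in KO and 5453 to 5611 CPM in WT, and all 15 were read.

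The 3 WT libraries were not alike. WT replicates 2 and 3 were the closest pair, with a standard deviation of 0.26 for the log2 difference over tested genes, and among genes with 100 to 1000 reads in the pair together they differed about as much as sampling alone gives (mean chi-square 1.06, against 1.88 to 5.28 for all other pairs). Above 10000 reads this pair differed by more than sampling noise (mean chi-square 8.76), but by far less than all other pairs (43.7 to 141). Both were kept as libraries and counted as separate replicates in the fits. These values do not show whether they are independent samples. WT replicate 1 was closer to KO replicate 1 (standard deviation 0.31) than to WT replicates 2 and 3 (0.39 and 0.40).

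The split was large in some single genes. In 37 genes the level in WT replicate 1 differed at least 4-fold from that in both other WT libraries, on the scale of log2(CPM + 0.5), while the corresponding number was 0 or 1 for each of the other 5 round spermatid libraries. *Ptchd3*, which codes for a patched-domain membrane protein, was at 289, 278 and 281 CPM in KO and at 314, 23.9 and 28.6 CPM in WT. *Ptpro*, a receptor tyrosine phosphatase gene, was at 28.1, 21.7 and 27.2 CPM in KO and at 24.3, 0.529 and 0.552 CPM in WT. In both genes WT replicate 1 lay with the KO libraries and replicates 2 and 3 stood far below.

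Other genes ran the opposite way. *Dock5*, the gene of a signalling protein, was at 9.89, 7.94 and 7.28 CPM in KO and at 7.35, 42.8 and 42.1 CPM in WT. *1700084F23Rik*, for which no function is given here, was at 0, 0.142 and 0.412 CPM in KO and at 0.127, 23.8 and 25.1 CPM in WT. Of the 37 genes, which were chosen from the WT libraries alone, 19 were higher and 18 lower in WT replicate 1, and in 37 of 37 all 3 KO libraries lay on the side of WT replicate 1, beyond replicates 2 and 3. With a 2-fold limit there were 314 such genes, and the 3 KO libraries lay beyond replicates 2 and 3 on that side in 237. At that limit the corresponding number was 160, 108 and 100 for the KO libraries and 63 for both WT replicates 2 and 3.

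Some of these genes also set single WT libraries apart in other stages. Of the 37, 28 reached 2 CPM in a pachytene spermatocyte library, and in 27 of them pachytene WT replicate 3 lay beyond the 5 other pachytene libraries on the side of round WT replicates 2 and 3. In condensing spermatids 33 reached that level, and condensing WT replicate 3 lay beyond the others in 33. *Ptchd3* was at 143 CPM in pachytene WT replicate 3 against 392 to 423 CPM in the other 5 libraries, and at 49.2 CPM in condensing WT replicate 3 against 222 to 256 CPM. No KO library of those stages showed this in more than 1 of the genes. The 37 genes lay on 15 chromosomes, 8 of them on chromosome 2, 5 on chromosome 14 and 1 on chromosome 5. Strain, animal and batch are not in the labels and cannot be told apart as sources of this split, and results are given with and without the libraries concerned where that changes them.

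**Figure D1:**
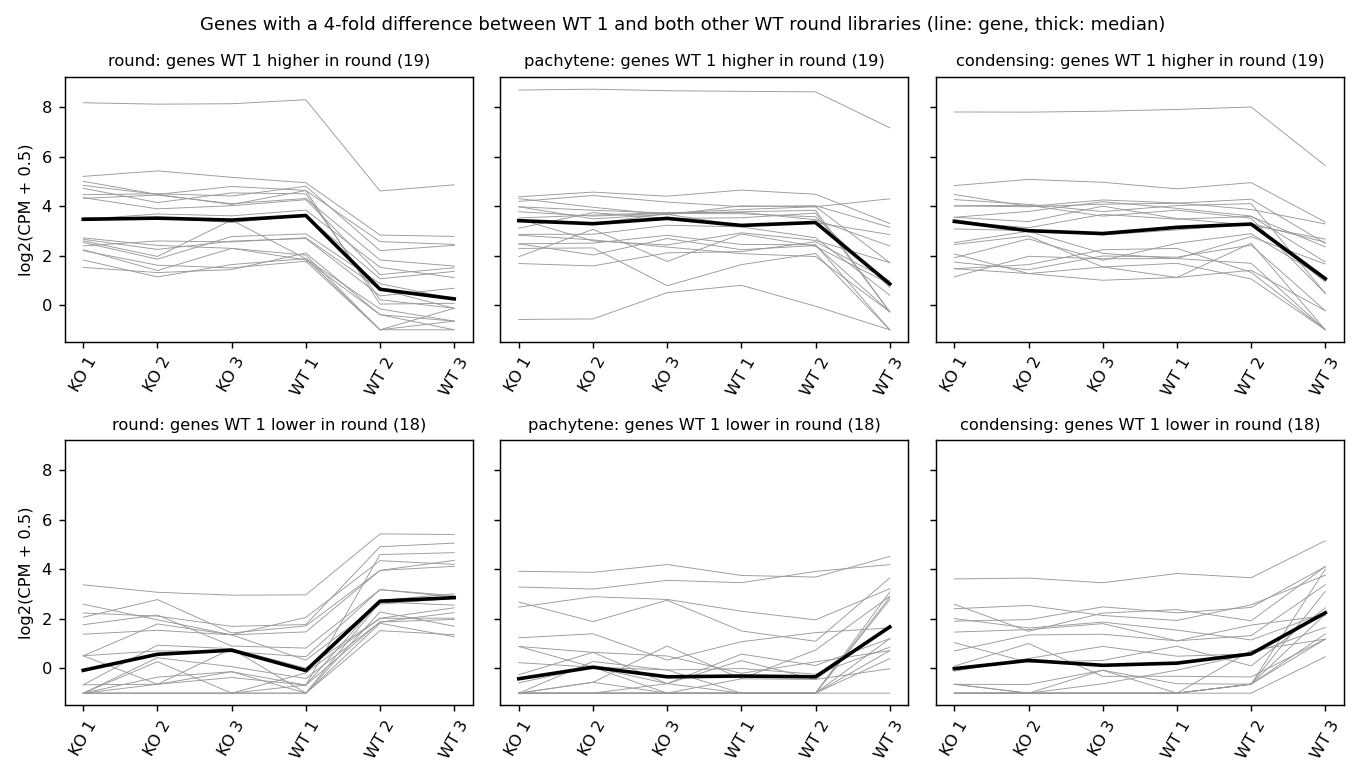
Each thin line is 1 of the 37 genes and the thick line their median, as log2(CPM + 0.5), across the 3 KO and 3 WT libraries of round spermatids, pachytene spermatocytes and condensing spermatids, split into the 19 genes higher and the 18 lower in round WT replicate 1. The KO libraries run level with round WT replicate 1, and round WT replicates 2 and 3, pachytene WT replicate 3 and condensing WT replicate 3 depart from the rest.

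The first question was whether the genotype labels hold. *H2afb1* had 182, 173 and 144 reads in the KO libraries and 1495, 1480 and 1458 in the WT libraries, which put it at 24.0, 24.5 and 19.8 CPM in KO and at 189.5, 196 and 201 CPM in WT. All 3 KO libraries lay far below all 3 WT libraries, and the WT libraries were close together. The KO level was 0.117 times that of WT (95% interval 0.0998 to 0.136), a log2 fold change of -3.10 (SE 0.10, edgeR quasi-likelihood test, adjusted p = 3.4e-08), and it passed the threshold in 16 of 16 alternative fits. Reads of *H2afb1* remained in every KO library, and since the counts are per gene, the part of the gene they come from was not tested. The nearest annotated neighbours held next to no reads, with *Nebl* at no more than 0.275 CPM and *A930004D18Rik* at 0 reads in all 6 libraries.

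A single further gene passed the threshold, so that 2 of 12804 genes (0.0156%) were called at an adjusted p under 0.05, 1 in each direction (0.00781%). *Sptbn4* (chr7:27356383-27447704), which codes for a beta spectrin of the membrane skeleton known from axon initial segments, was at 78.1, 84.9 and 67.0 CPM in KO and at 46.4, 41.8 and 38.5 CPM in WT. The genotypes did not overlap, and WT replicate 1 was the highest WT library. The level rose 1.81-fold in KO (95% interval 1.53 to 2.15), a log2 fold change of 0.86 (SE 0.11, edgeR, adjusted p = 0.0495).

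The direction of *Sptbn4* was the same in every fit run, with log2 fold changes of 0.74 to 0.95, but the call was marginal. It held in 8 of 16 alternatives, with adjusted p from 2.7e-06 (DESeq2) to 0.372 (edgeR without WT replicate 3). Leaving out WT replicate 1 kept the call (edgeR adjusted p = 0.00103), while leaving out any other single library lost it, as did summing WT replicates 2 and 3 into 1 library (adjusted p = 0.327) or leaving both out. Of its neighbours, *Shkbp1* was at 3.02 to 4.68 CPM in KO and 2.62 to 3.80 CPM in WT (log2 fold change 0.21, SE 0.27, edgeR adjusted p = 0.991). *Blvrb*, the gene of biliverdin reductase B, was at 0.923, 0.992 and 0.412 CPM in KO and at 0.254, 0.132 and 0.138 CPM in WT, without overlap but below the filter.

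**Figure D2:**
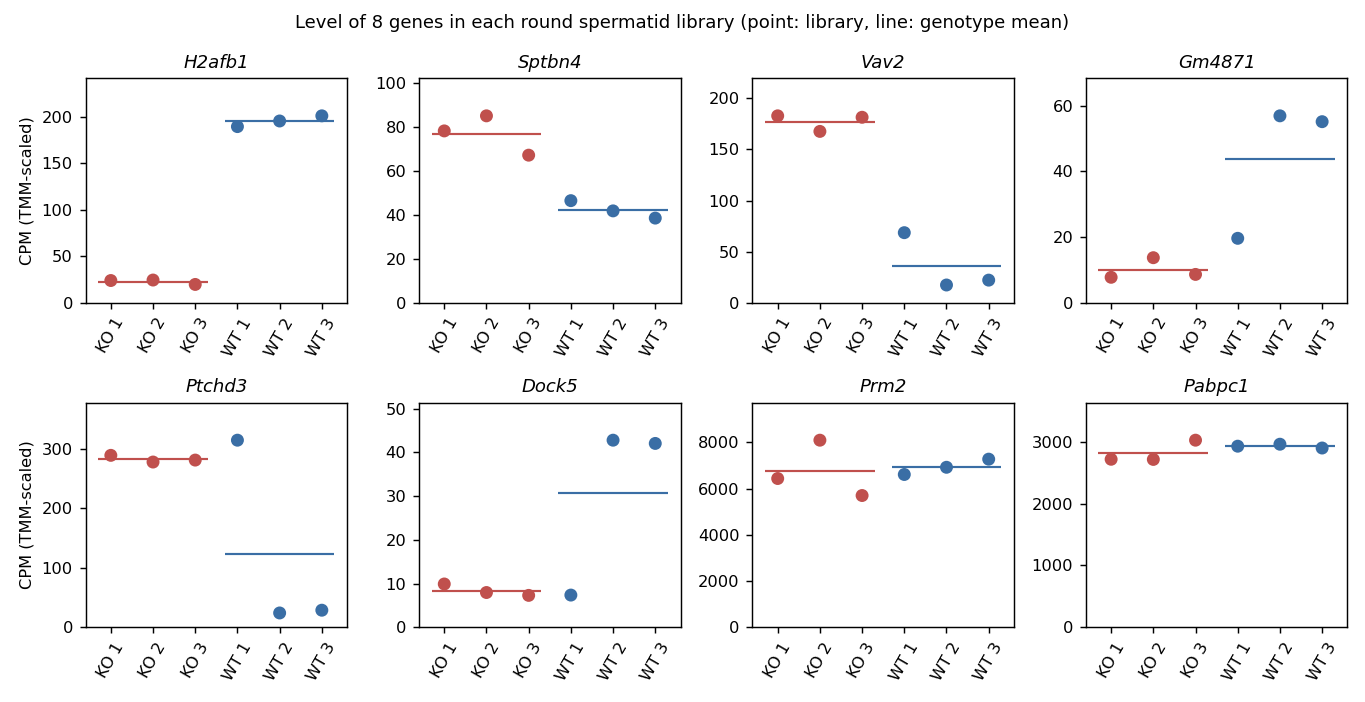
Level of 8 genes in each of the 6 round spermatid libraries (CPM on the y axis, from 0), with a line at the mean of each genotype. *H2afb1* and *Sptbn4* separate the genotypes, *Vav2* and *Gm4871* separate them with WT replicate 1 nearest to KO, *Ptchd3* and *Dock5* set WT replicates 2 and 3 apart, and *Prm2* and *Pabpc1* overlap.

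No other gene passed in this fit. At an unadjusted p under 0.05 there were 753 genes (5.88%), 334 higher (2.61%) and 419 lower (3.27%) in KO, and at an unadjusted p under 0.01 there were 189 (1.48%), 65 higher (0.508%) and 124 lower (0.968%). The KO libraries lay wholly above the WT libraries in 551 genes (4.3%) and wholly below in 710 (5.55%). Genes with the lowest p and no overlap are given next as values, since they did not pass the threshold.

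*Vav2*, which codes for a signalling protein, was at 183, 168 and 181 CPM in KO and at 68.6, 17.4 and 22.2 CPM in WT. The KO libraries were close together and WT replicate 1 lay between them and the other WT libraries. The log2 fold change was 2.29 (SE 0.37, edgeR adjusted p = 0.170). With WT replicates 2 and 3 both left out it was 1.38 and passed the threshold (edgeR adjusted p = 0.00291), and with WT replicate 1 left out it was 3.17 and passed as well (edgeR adjusted p = 5.4e-08). *Vav2* lies on chromosome 2, 9.27 Mb from *H2afb1*.

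The next genes with higher values in KO differed less. *Col5a1*, a collagen chain gene 9.89 Mb from *H2afb1*, was at 31.4 to 36.1 CPM in KO and 20.4 to 24.1 CPM in WT. *Mbd5*, the gene of a methyl-CpG-binding-domain protein, was at 50.6 to 65.2 CPM in KO and 36.0 to 42.4 CPM in WT. Their log2 fold changes were 0.62 and 0.53, and the libraries within a genotype were close. *Mthfd2l*, of mitochondrial folate metabolism, was at 8.79 to 15.7 CPM in KO and 3.59 to 6.34 CPM in WT. *Ppargc1b*, a coactivator of mitochondrial genes, was low, at 2.89 to 3.54 CPM in KO and 1.24 to 1.65 CPM in WT. *Afg3l1*, of a mitochondrial protease family, was at 56.2 to 79.6 CPM in KO and 38.5 to 49.9 CPM in WT, and WT replicate 1 was the highest WT library for both *Afg3l1* and *Mthfd2l*.

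Among the genes with lower values in KO, *Gm4871* (chr5:145029600-145032764) was at 7.78, 13.7 and 8.66 CPM in KO and at 19.6, 56.9 and 55.2 CPM in WT. As for *Vav2*, WT replicate 1 lay between. The log2 fold change was -2.13 (SE 0.36, edgeR adjusted p = 0.202), and -0.96 with WT replicates 2 and 3 left out. *Gbe1*, the glycogen branching enzyme gene, had the same shape, at 8.83, 12.2 and 10.4 CPM in KO and at 16.0, 31.4 and 29.4 CPM in WT.

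In the 4 other genes of this group the WT libraries lay close together. *1700080N15Rik*, on chromosome 2 at 13.9 Mb from *H2afb1*, was at 4.48 to 6.38 CPM in KO and 10.9 to 13.9 CPM in WT. *Coq4*, of coenzyme Q synthesis and 11.8 Mb from *H2afb1*, was at 32.4 to 36.5 CPM in KO and 49.0 to 50.3 CPM in WT. Their log2 fold changes were -1.24 and -0.52, and -1.01 and -0.49 with WT replicates 2 and 3 left out. *Dcn*, which codes for the matrix proteoglycan decorin, was at 4.39 to 5.54 CPM in KO and 9.38 to 10.2 CPM in WT. *Aldh1a1*, a retinaldehyde dehydrogenase gene, was at 4.09 to 4.96 CPM in KO and 8.32 to 9.10 CPM in WT. These 4 genes did not overlap between the genotypes, and their edgeR adjusted p ran from 0.113 to 0.240.

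*Dcn* and *Aldh1a1* are expressed in somatic cells of the testis, and the marker lists of such cells did not all move in the same direction. The summed level of 15 markers of Sertoli cells, the supporting cells of the tubule, was 51.2 to 62.0 CPM in KO and 67.6 to 93.8 CPM in WT, without overlap, and each marker was read in at least 1 library. *Clu*, the most abundant of them, was at 16.4, 16.7 and 13.5 CPM in KO and at 29.0, 22.6 and 19.2 CPM in WT (log2 fold change -0.61, edgeR adjusted p = 0.612). Of the 10 Sertoli markers tested 0 were called by edgeR, 4 had an unadjusted p under 0.05, each lower in KO (against 3.27% of all genes), and the median log2 fold change of -0.39 became -0.03 without WT replicate 1. *Dcn* and *Aldh1a1* stood at -0.98 and -0.98 without that library.

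The 10 markers of Leydig cells, the steroid-producing cells, summed to 13.2 to 18.3 CPM in KO and 18.4 to 22.3 CPM in WT. The 9 macrophage markers summed to 22.9 to 31.9 CPM in KO and 31.7 to 41.8 CPM in WT. The log2 fold changes of the 7 tested ran from -1.48 to 0.28, 6 of them below 0. *Cd74*, an antigen-presentation gene and the member with the largest difference, was at 1.71, 3.12 and 3.16 CPM in KO and at 11.03, 6.21 and 4.97 CPM in WT. The highest Leydig sum in KO (18.33 CPM) fell just short of the lowest in WT (18.38 CPM), and the macrophage sums barely overlapped. The median log2 fold change was -0.67 over 5 Leydig and -0.47 over 7 macrophage markers tested, and unlike that of the Sertoli markers it stayed near these values without WT replicate 1, at -0.64 and -0.52. At an unadjusted p under 0.05 there were 1 of the Leydig and 4 of the macrophage markers, each lower in KO (against 3.27% of all genes). In both lists 0 were called by edgeR. The part of these cells in the values of *Dcn* and *Aldh1a1* was not tested. Sums of peritubular myoid markers (327 to 432 CPM in KO and 346 to 358 CPM in WT), endothelial markers (31.7 to 41.8 CPM in KO and 32.8 to 36.1 CPM in WT) and spermatogonial markers (52.5 to 73.2 CPM in KO and 57.8 to 63.1 CPM in WT) overlapped, and 6 of 7 red blood cell markers had no read in any library. The median log2 fold change was 0.19 over 5 endothelial markers tested, 4 of them higher in KO. It was -0.10 over 6 peritubular myoid and 0.06 over 12 spermatogonial markers tested. Here as elsewhere in bulk RNA, fewer cells of a type and less RNA per cell cannot be told apart.

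The summed marker levels of the neighbouring germ cell stages overlapped between the genotypes. Pachytene spermatocyte markers, mainly genes of meiotic chromosome pairing and recombination, summed to 2673 to 3025 CPM in KO and 2848 to 2919 CPM in WT. Their median log2 fold change was -0.10 over 19 tested, 12 of them below 0, and 0 were called. The KO libraries lay wholly below the WT libraries in 3 of them, against 5.55% of all genes, and wholly above in 0. Elongating spermatid markers summed to 30759.7 to 39445 CPM in KO and 33948 to 37075 CPM in WT, with the wider range in KO. Their median was -0.05 over 14 tested, 10 of them below 0, and 0 were called.

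The size of change that the data allow was then taken for each gene from the 95% interval of its fold change. That interval lay within a 2-fold change either way for 11247 genes (87.8% of those tested) and within a 1.5-fold change for 7936 (62%). The median half-width of the interval was 0.34 on the log2 scale, a factor of 1.26. These intervals are for single genes and make no statement on all genes together. They, and the bounds of the gene lists below, count the closest pair of WT libraries as separate replicates. If the libraries of that pair are not independent samples, the intervals are too narrow. With that pair summed, 90 genes had an unadjusted p under 0.01 (edgeR), against 189 with all libraries kept apart.

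Abundance set the precision. Of genes at 1 to 10 CPM, 71.8% had an interval within 2-fold and 19.1% within 1.5-fold, and the median half-width was 0.58. At 10 to 100 CPM the shares were 98.5% and 88.9%, and at 100 to 1000 CPM they were 99.5% and 97.1%. All 95 genes above 1000 CPM lay within 2-fold and 94 within 1.5-fold, with a median half-width of 0.17. An interval wholly beyond a 1.2-fold change was found for 137 genes, 102 of them at 1 to 10 CPM and 0 above 1000 CPM. The median log2 fold change over all genes tested was -0.0037, and the central 90% of values lay between -0.40 and 0.39.

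**Figure D3:**
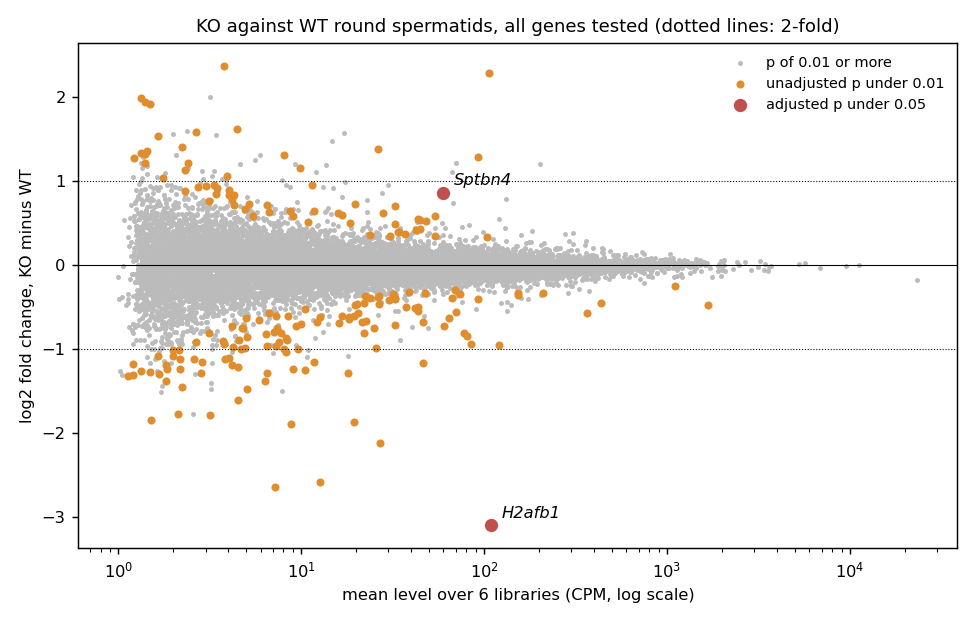
Log2 fold change (KO minus WT, y axis) of each tested gene against its mean level over the 6 libraries (x axis, CPM on a log scale). The values narrow as the level rises, *Sptbn4* and *H2afb1* are the 2 genes with an adjusted p under 0.05, and most genes with an unadjusted p under 0.01 lie below 100 CPM.

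Gene lists were described by their counts and medians, with no test of a list, beside the median of -0.0037 and the 0.0156% of genes called overall. Counts within 1.5-fold stand beside 62% of all genes, 88.9% of genes at 10 to 100 CPM and 97.1% at 100 to 1000 CPM. A high share in a list of abundant genes is therefore not particular to that list. The transition proteins and protamines, which act after H2A.L.2, were tightly bounded. *Tnp1* was at 3393, 3933 and 3092 CPM in KO and at 3088, 3584 and 3644 CPM in WT. *Prm2* was at 6438, 8098 and 5702 CPM in KO and at 6613, 6924 and 7276 CPM in WT. In both genes the genotypes overlapped and KO replicate 2 was the highest library. Of 5 members tested (*Tnp1*, *Tnp2*, *Prm1*, *Prm2* and *Prm3*) 0 were called, their log2 fold changes ran from -0.07 to 0.11 with a median of -0.03, and all 5 intervals lay within 1.5-fold. The interval of the fold was 0.871 to 1.17 for *Tnp1* and 0.822 to 1.15 for *Prm2*, and *Prm3* had the lowest p (log2 fold change 0.11, edgeR adjusted p = 0.987).

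Other chromatin genes of spermatids were also close to 0. Of 16 tested testis histone variants and H3.3 genes *H2afb1* was the 1 called, 15 intervals lay within 2-fold and 11 within 1.5-fold, and the median was -0.04. *Hils1*, a linker histone gene of spermatids, was at 610.3 ± 54.5 CPM in KO and 576 ± 8.55 CPM in WT (mean ± SD, n = 3). *H1fnt*, another, was at 723 ± 73.8 CPM in KO and 712 ± 25.3 CPM in WT. The bromodomain readers and acetyltransferases, which read or write histone acetylation, had 0 of 24 called and 24 of 24 within 1.5-fold, with fold intervals of 0.908 to 1.16 for *Brd2* and 0.936 to 1.21 for *Cdyl*. The member with the lowest p, the acetyltransferase gene *Kat6b*, did not pass (log2 fold change 0.29, edgeR adjusted p = 0.800).

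Histone chaperones and remodelers had 0 of 33 called, a median of -0.0015 and 28 within 1.5-fold. *Nasp* and *Npm1*, histone chaperones, had fold intervals of 0.785 to 1.15 and 0.800 to 1.17, and *Chd1*, a remodeler, had the lowest p (log2 fold change -0.30, edgeR adjusted p = 0.765). In the histone ubiquitination and proteasome list 0 of 23 tested were called. *Psma8*, the testis-specific alpha subunit of the proteasome, was at 22.9, 20.1 and 23.8 CPM in KO and at 28.8, 32.5 and 31.3 CPM in WT, without overlap but short of the threshold (log2 fold change -0.47, edgeR adjusted p = 0.599). *Psme4* (PA200), the proteasome activator that acts in histone degradation, was bounded to 0.845 to 1.13, and the proteasome gene *Psma6* to 0.920 to 1.17.

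Regulators of spermatid expression had few members with a low p. Of 28 spermiogenic transcription regulators 0 were called, with a median of -0.0042 and 26 within 1.5-fold. *Spz1* and *Fhl4*, the most abundant of them per kilobase, had fold intervals of 0.850 to 1.15 and 0.892 to 1.11, and *Hsf1*, the heat shock regulator, had the lowest p (log2 fold change 0.18, edgeR adjusted p = 0.940). Of 37 genes of mRNA storage and translation control 0 were called. *Pabpc1*, the poly(A)-binding protein gene, was at 2820.2 ± 179 CPM in KO and 2931 ± 30.7 CPM in WT (mean ± SD, n = 3). *Ybx2*, whose protein stores germ cell mRNA, was bounded to 0.912 to 1.15, and *Piwil2*, of the piRNA pathway, had the lowest p (log2 fold change -0.25, edgeR adjusted p = 0.801).

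The structural genes of the sperm cell were covered by 5 lists with 0 calls in each. Acrosome genes had 40 of 43 within 1.5-fold and a median of -0.03, with *Dkkl1* and *Actl7b* bounded to 0.888 to 1.12 and 0.866 to 1.07 and *Capza3*, an actin-capping subunit gene, at the lowest p (log2 fold change 0.17, edgeR adjusted p = 0.837). Axoneme genes had 61 of 65 within 1.5-fold and a median of 0.02, with *Ropn1l* and *Meig1* bounded to 0.936 to 1.15 and 0.873 to 1.16. *Armc4*, needed for dynein arms, had the lowest p of that list (log2 fold change -0.24, edgeR adjusted p = 0.739). Genes of the outer dense fibers and fibrous sheath, the accessory structures of the tail, had 28 of 30 within 1.5-fold, with *Smcp* and *Ldhc* bounded to 0.822 to 1.13 and 0.888 to 1.09.

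*Fsip1*, a fibrous sheath protein gene on chromosome 2, was at 105, 121 and 113 CPM in KO and at 113, 172 and 175 CPM in WT. WT replicate 1 lay with KO (log2 fold change -0.44, edgeR adjusted p = 0.692, and 0.00336 without WT replicate 1). Of the manchette and head-shaping genes 40 of 43 lay within 1.5-fold, with *Spata4* bounded to 0.841 to 1.14 and *Kifc1*, a kinesin gene, at the lowest p (log2 fold change -0.31, edgeR adjusted p = 0.935). Of the CatSper and ion transport genes 22 of 24 lay within 1.5-fold, with *Tex40* bounded to 0.885 to 1.13, *Atp1a4* to 0.848 to 1.12, and *Lrrc52* at the lowest p (log2 fold change -0.29, edgeR adjusted p = 0.932).

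Sperm energy metabolism had 0 of 34 called and 32 within 1.5-fold, with the glycolytic *Gapdhs* bounded to 0.846 to 1.08 and *Pdha2*, a testis pyruvate dehydrogenase subunit gene, at the lowest p (log2 fold change -0.15, edgeR adjusted p = 0.916). Testis kinases and phosphatases had 0 of 29 called and 27 within 1.5-fold, with *Tssk2* and *Tsks* bounded to 0.881 to 1.14 and 0.862 to 1.13 and *Ppp3cc*, a calcineurin subunit gene, at the lowest p (log2 fold change -0.11, edgeR adjusted p = 0.958). Of 83 cytosolic ribosomal protein genes 0 were called and 74 lay within 1.5-fold, with *Rps29* and *Rpl41* bounded to 0.884 to 1.17 and 0.815 to 1.06.

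*Rpl29*, a ribosomal protein gene with processed copies in the genome, so that its count is uncertain, was at 47.7, 81.1 and 45.5 CPM in KO and at 72.0, 132 and 131 CPM in WT. The groups overlapped, WT replicate 1 lying below KO replicate 2 (log2 fold change -0.95, edgeR adjusted p = 0.612, and 0.0059 without WT replicate 1). In the list of DNA damage, apoptosis and stress genes 27 of 42 were tested and 0 called. *Hspa1a*, a stress-induced heat shock gene, was low, at 1.05, 1.42 and 0.824 CPM in KO and at 1.90, 2.38 and 3.31 CPM in WT (log2 fold change -1.19, edgeR adjusted p = 0.616), and the abundant chaperone genes *Hspa5* and *Dnajb1* were bounded to 0.891 to 1.21 and 0.920 to 1.15.

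Of 16 tested spectrins, ankyrins and their partners, *Sptbn4* was the 1 called, and 11 lay within 1.5-fold. *Sptan1*, the alpha spectrin gene whose product pairs with beta spectrins, was at 381, 346 and 359 CPM in KO and at 374, 352 and 342 CPM in WT, with overlap and a fold interval of 0.905 to 1.14. *Epb4.1l2*, of the protein 4.1 family that links spectrin to actin, was bounded to 0.854 to 1.10.

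Of 15 mitochondrially encoded genes on the list, *mt-Rnr1* and *mt-Rnr2*, the ribosomal RNAs of the mitochondrion, were found under the names listed. *mt-Rnr2* was at 20348 to 23333 CPM in KO and 23741 to 25851 CPM in WT, without overlap (log2 fold change -0.18, edgeR adjusted p = 0.765), and *mt-Rnr1* overlapped, with a fold interval of 0.843 to 1.19. Of the 12 genes tested of the whole mitochondrial genome 0 were called. An unadjusted p under 0.05 was reached by 4, each lower in KO, against 3.27% of all genes. The median log2 fold change over the 12 was -0.15, with 9 below 0. That median ranged from -0.25 to -0.0043 with 1 library left out at a time, the latter without KO replicate 1. The preparation depletes ribosomal RNA, and its part in these values was not tested.

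**Figure D4:**
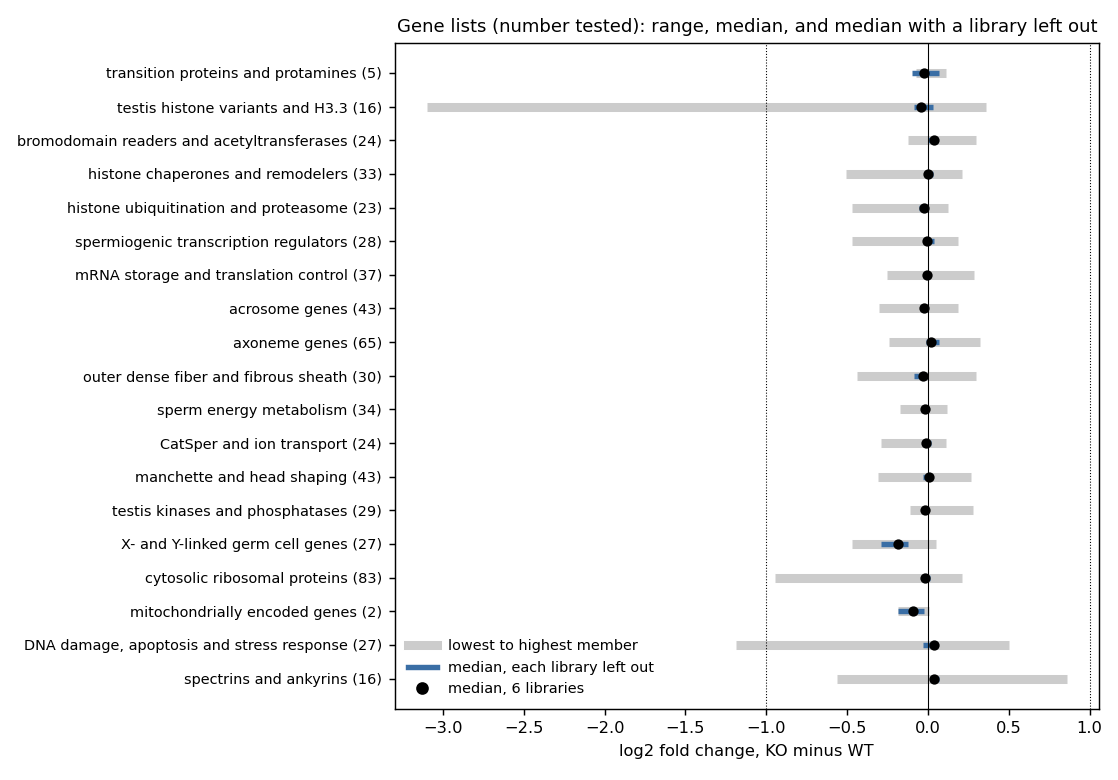
For each of 19 gene lists (number of members tested in brackets), the grey bar runs from the lowest to the highest log2 fold change (KO minus WT, x axis), the dot is the median over 6 libraries and the blue bar the range of the median with each library left out. The medians lie within 0.10 of 0 except for the X- and Y-linked germ cell genes at -0.19.

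Among the 19 pathway lists, the median farthest from 0 was that of X- and Y-linked germ cell genes, at -0.19 over 27 genes tested, of which 24 were below 0, against 6533 of all 12804 genes, and 0 were called. The median was -0.29 without WT replicate 1 and -0.12 without KO replicate 1, the ends of its range with 1 library left out. *Akap4*, the X-linked gene of the main fibrous sheath protein, was at 3268, 3706 and 3018 CPM in KO and at 3342, 3567 and 3521 CPM in WT, with overlap. *Tsga8* was at 189.9 to 207 CPM in KO and 216 to 221 CPM in WT, without overlap (log2 fold change -0.14, edgeR adjusted p = 0.916), and *Cypt1* had the lowest p (log2 fold change -0.34, edgeR adjusted p = 0.795). Of all 438 X-linked genes tested 358 were bounded within 2-fold (81.7%, against 87.8% of all genes). Within 1.5-fold there were 154 of the 438, against 62% of all genes. These shares were not matched for level, and over all genes the latter was 19.1% at 1 to 10 CPM and 88.9% at 10 to 100 CPM. Over the 438 genes the median was -0.12, with 309 below 0 and 0 called. Leaving out 1 library at a time moved that median between -0.18 and -0.05.

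Genes with a low p were spread unevenly over the chromosomes. At an unadjusted p under 0.01, against 1.48% of all genes, there were 44 of 1019 genes tested on chromosome 2 (4.32%), which carries *H2afb1*, 17 of 472 on chromosome 14 (3.60%) and 25 of 843 on chromosome 5 (2.97%). All other tested genes together had 103 of 10470 (0.984%). The count was chosen after the positions of the genes had been seen, and it is given as a description.

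On chromosome 2, 1 of 31 tested genes within 5 Mb of *H2afb1* (3.23%, not counting it) reached that p, and 6 of 115 within 10 Mb (5.22%). There were 15 of 225 within 15 Mb (6.67%) and 19 of 287 within 35 Mb (6.62%). The share over the whole chromosome, 4.32%, counts *H2afb1* itself. Genes outside these windows included *B2m*, the light chain gene of class I antigens, and *Bloc1s6*, a subunit gene of a lysosome-related organelle complex. *B2m* was at 2.11, 2.98 and 3.02 CPM in KO and at 4.82, 7.14 and 6.90 CPM in WT. *Bloc1s6* was at 36.3, 42.4 and 35.3 CPM in KO and at 30.3, 6.61 and 6.34 CPM in WT. In both genes the genotypes did not overlap, and WT replicate 1 was the WT library nearest to KO.

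These counts depended on the libraries used, KO as well as WT. Without KO replicate 3 the shares were 2.89% on chromosome 2, 1.28% on chromosome 5 and 1.03% on chromosome 14. That stood against 0.984% of all genes, so chromosomes 5 and 14 were then near the share of all genes. With WT replicate 1 left out the shares were 11.04% on chromosome 2, 8.30% on chromosome 5 and 11.5% on chromosome 14, against 4.64% of all genes. With WT replicates 2 and 3 both left out, so that 1 WT library stood against 3 KO libraries and was assumed to vary as they do, they were 12 of 1061 (1.13%), 3 of 883 (0.340%) and 4 of 493 (0.811%), against 0.502% of all 13548 genes.

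**Figure D5:**
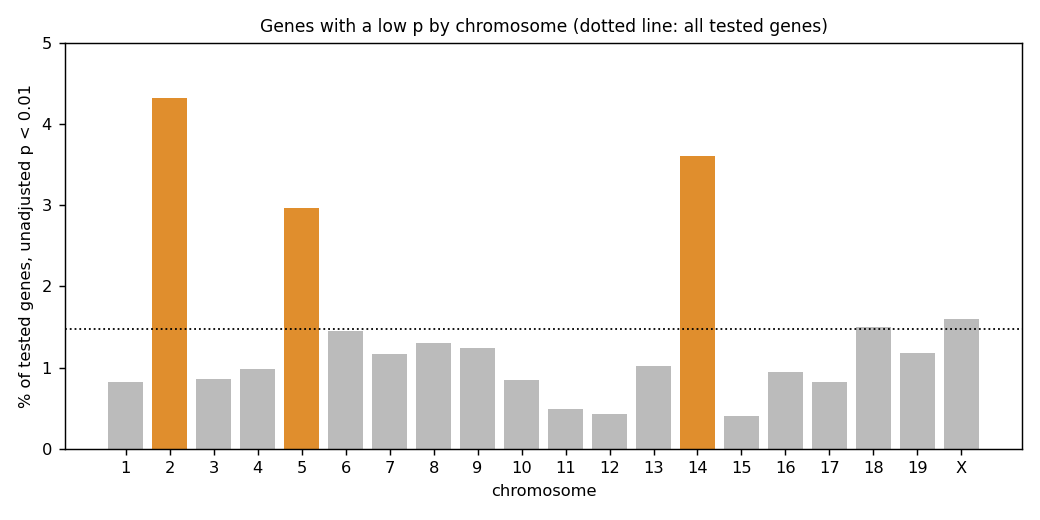
Share of tested genes with an unadjusted p under 0.01 (y axis, percent) on each chromosome (x axis), with a dotted line at the share over all tested genes, 1.48%. Chromosomes 2, 5 and 14 (orange) stand at 4.32%, 2.97% and 3.60%, and the other autosomes and X at or below 1.60%.

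The calls themselves depended on which WT libraries were used. Without WT replicate 1, 264 of 13045 genes (2.02%) were called by edgeR, 131 higher (1%) and 133 lower (1.02%) in KO, of which 61 lay on chromosome 2, 37 on chromosome 14 and 28 on chromosome 5. Those with the lowest p were *Ptchd3*, *Vav2*, *Ptpro*, *Spg11*, *Bloc1s6* and *Grin2b*, higher in KO, and *H2afb1*, *1700084F23Rik*, *Tbc1d2*, *Dock5*, *Rusc2* and *Gm4871*, lower in KO. With limma-voom and sample weights over all 6 libraries, 82 genes (0.64%) were called.

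*Spg11*, a gene of lysosome reformation, was at 88.2, 94.5 and 91.8 CPM in KO and at 83.5, 24.2 and 18.8 CPM in WT. *Grin2b*, a glutamate receptor subunit gene, was at 106, 108 and 82.7 CPM in KO and at 84.2, 20.7 and 21.8 CPM in WT. In both genes WT replicate 1 stood with KO. *Tbc1d2*, of Rab GTPase control, was at 4.22, 3.83 and 2.75 CPM in KO and at 2.92, 29.7 and 33.0 CPM in WT. *Rusc2*, of vesicle traffic, was at 29.7, 29.3 and 26.8 CPM in KO and at 26.0, 85.9 and 82.1 CPM in WT, again with WT replicate 1 at the KO level. With WT replicates 2 and 3 both left out, 2 of 13548 genes (0.0148%) were called by edgeR, *H2afb1* (log2 fold change -3.04) and *Vav2*, and 385 (2.84%) had an unadjusted p under 0.05.

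Reads in 1 genotype alone were sought among genes that the filter removes. In this search 0 genes had at least 10 reads over the 3 KO libraries and 0 in the WT libraries, and 6 genes had this the other way around. *Pnp2* (chr14:50956141-50964751), a purine nucleoside phosphorylase gene, had 0 reads in WT replicate 1 and 45 and 39 in replicates 2 and 3. *Rnase10* (chr14:51007751-51010761), of the RNase A family, had 1, 24 and 25 reads, and *4930413M19Rik* (chr14:50503769-50520943), a lncRNA gene, had 0, 18 and 15. These neighbouring genes were read almost wholly in WT replicates 2 and 3, and WT replicate 1 was like the KO libraries. In the other stages *Pnp2* was at 1.80 CPM in pachytene WT replicate 3 and 8.15 CPM in condensing WT replicate 3, with 1 read in condensing WT replicate 2 and 0 in all other libraries of those stages. *Lgi1* and *1700003D09Rik* had 13 reads each over the WT libraries, spread over all 3, and *4921508D12Rik* had 11, all in replicates 2 and 3.

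Lastly, the difference in round spermatids was set beside the same difference in pachytene spermatocytes and condensing spermatids. The interaction tests called 0 of 14479 genes for both stages (edgeR), with 1050 (7.25%) for pachytene spermatocytes and 407 (2.81%) for condensing spermatids at an unadjusted p under 0.05, and DESeq2 called 1 and 0. *H2afb1* was at 5.23, 5.53 and 3.36 CPM in KO and 42.0, 36.0 and 16.2 CPM in WT pachytene spermatocytes, and at 26.1, 35.3 and 29.3 CPM in KO and 187, 158 and 252 CPM in WT condensing spermatids. Its KO libraries were below its WT libraries in each stage, and it was the 1 gene called of 13734 in condensing spermatids (0.00728%). In pachytene spermatocytes 0 of 12236 genes were called, and *H2afb1* itself did not pass there (edgeR adjusted p = 0.484). It passed with pachytene WT replicate 3 left out (edgeR adjusted p = 5.2e-05).

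*Sptbn4* did not overlap between genotypes in either stage. It was at 53.3, 65.6 and 116 CPM in KO and 35.2, 36.1 and 29.9 CPM in WT pachytene spermatocytes, and at 52.7, 51.3 and 74.3 CPM in KO and 31.3, 34.5 and 30.6 CPM in WT condensing spermatids. The edgeR adjusted p was 0.656 and 0.0657 with all libraries, and 0.0501 and 0.0343 with WT replicate 3 of each stage left out. *Vav2* was at 116, 141 and 184 CPM in KO and 68.8, 115 and 12.1 CPM in WT pachytene spermatocytes, and at 116, 124 and 125 CPM in KO and 54.2, 81.4 and 21.3 CPM in WT condensing spermatids. In both stages its KO libraries lay above all WT libraries and WT replicate 3 was the lowest. Its edgeR adjusted p was 0.656 and 0.389 with all libraries, and 0.109 and 0.0189 with WT replicate 3 of each stage left out.

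Of the genes with an unadjusted p under 0.01 in round spermatids, not counting *H2afb1*, 151 of 179 had the same sign in condensing spermatids, against 52.9% of all genes, and 128 of 153 in pachytene spermatocytes, against 49% of all genes. With WT replicate 3 of those stages left out and all 6 round libraries kept, the counts were lower, at 123 of 180 (68.3%) in condensing spermatids, against 50.3% of all genes, and 115 of 158 (72.8%) in pachytene spermatocytes, against 47.5%. With WT replicate 3 of those stages and round WT replicates 2 and 3 left out, the counts were 54 of 62 against 62.7%, and 39 of 50 against 57.3%. The stages share no library, but the labels do not say whether fractions of different stages came from the same animals.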

How the data were processed

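Fractionated wild-type and *H2al2* KO mouse testis cells were sequenced as ribosomal RNA-depleted, stranded total RNA, 75-base paired-end. According to the submitters' processing notes and the study's methods, STAR (2.7.11b) was the aligner, mm10 the genome, and HTSeq the counter, over exons on the reverse strand by strict intersection without multiply aligned reads. The authors deposited raw read counts per gene, not normalized. Genes with near-identical copies can therefore be undercounted. The 5 rows that name no gene held 34.6% to 42.1% of the counted reads and were left out.

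Groups were taken from the labels. KO was compared with WT in 6 round spermatid libraries with edgeR 4.0.16 (R 4.3.3): TMM, filterByExpr, quasi-likelihood test, Benjamini-Hochberg adjustment at 0.05. SEs were recovered from the F statistic and give the 95% intervals. Interactions between stages were fitted on 18 libraries. The functions were tested on simulated data. CPM are counts scaled to TMM-adjusted library totals. Positions came from RefSeq (GRCm38.p6, the assembly of mm10), where 23218 genes matched by symbol, 1080 by an older symbol and 158 did not, and transcript sequences from GENCODE.

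Named genes are those called, the 6 per direction with the lowest p after them (mean of at least 1 CPM, no overlap), per pathway list the 2 most abundant per kilobase and the 1 with the lowest p, up to 6 per direction called without WT replicate 1, up to 3 per direction with reads in 1 genotype, and the relatives and neighbours of called genes; *B2m*, *Clu*, *Cd74*, *Lgi1*, *1700003D09Rik* and *4921508D12Rik* were added after their values were seen. The lists and members were chosen with earlier results of these data known. Alternatives were DESeq2 (1.42.0), limma-voom with sample weights (limma 3.58.1), scaling by DESeq2 size factors or by library totals, dropping the filter, a minimum of 10 counts per library, a fit on 18 libraries, leaving out mitochondrial genes, the replicate block, WT replicates 2 and 3 summed, and each library left out. The comparison of WT libraries, the counts by chromosome, the wider windows and the fits without round WT replicates 2 and 3 or WT replicate 3 of other stages were added after the data were seen. Differences between same-numbered KO and WT libraries and their group means correlated at 0.27, 0.11 and 0.059. Those of differently numbered libraries correlated at -0.19 to 0.15. The numbers were not taken as pairs, and the labels do not say whether they are.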

Additional observations from a re-analysis of the deposited data

How the results depend on the processing

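*H2afb1* passed the threshold under every alternative run, with log2 fold changes of -3.15 to -3.01. The number of genes called, 2 with all 6 libraries, was 6 with DESeq2, 82 with limma-voom and sample weights, 28 with no filter, and 1 each with DESeq2 size factors, with all 18 libraries and with WT replicates 2 and 3 summed. With each library left out it ranged from 1 to 264, the highest without WT replicate 1. The labels do not say whether same-numbered libraries share more than a number. With the replicate block 61 genes were called, 18 of them higher in KO, and the block left both interactions at 0. The 0 genes of the interaction with pachytene spermatocytes became 1 with DESeq2 and 1 with no filter, and with each library left out ranged from 0 to 4 (4 without round WT replicate 1, 1 without pachytene KO replicate 3). That with condensing spermatids ranged from 0 to 1 (1 without round WT replicate 1). The counts of intervals within 2-fold and 1.5-fold stayed within 1.5 times their value. Allowing 1 read in the low genotype gave 6 genes with reads in KO and 12 in WT alone, and asking for 20 reads gave 3 in WT alone. Of 633 values of single genes, 553 kept direction and call, 70 gained and 9 lost a call, and *Shkbp1* ranged from -0.0028 (without KO replicate 2) to 0.39 (without WT replicate 1) with each library left out. Among 35 abundant list members, 24 changed sign in some fit and 0 passed 1.5-fold. The causes of these changes were not tested. Depth limits genes at 1 to 10 CPM, of which 71.8% were bounded within 2-fold.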
